A study of Mus musculus with 8 samples.

Results

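Smooth muscle cells and pericytes together form the mural layer around the vessels of the heart, and 9 genes that mark them were followed here across 8 pressure-loaded mouse hearts. The genes were taken by name from a table of read counts per gene. All 9 were present among its 56748 genes, and all 9 were among the 16780 genes tested. Of the 9, 6 encode proteins of the smooth muscle contractile apparatus or bind to it (Acta2, Myh11, Myl9, Cnn1, Tagln and Smtn), and 3 are used to recognise pericytes (Rgs5, Pdgfrb and Cspg4).

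The libraries were made from polyadenylated RNA of hearts labelled as whole, from mice described as C56BL and aged 3 to 4 months, 7 days after constriction of the transverse aorta. Per the labels, hearts were left out where carotid flow on the right was under 3 or above 25 times that on the left. The 4 ACRE hearts were Cre controls, whose Cre recombinase is expressed from the cardiomyocyte promoter aMHC (alpha myosin heavy chain), and the 4 CMS7KO hearts were labelled as cardiomyocyte-specific Smad7 knockouts made with that Cre. All 8 hearts had the same constriction, and unoperated hearts were not analysed here. Cre was directed to cardiomyocytes, so the vessel wall cells that express the 9 genes were not the cells in which Smad7 was to be deleted.

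Mural cells contract through an actin and myosin system of their own. The contractile genes are switched on by serum response factor (Srf) with its partner myocardin (Myocd), which act at DNA sites called CArG boxes. Pericytes sit on capillaries and are recruited by platelet-derived growth factor B from the endothelium, which binds the receptor Pdgfrb. Acta2 and Myl9 are not exclusive to vessels: activated fibroblasts and other contractile cells also use them.

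Smad7 itself was at 34.6, 34.5, 32.7 and 23.9 CPM in the libraries labelled ACRE 1 to 4, and the libraries labelled CMS7KO 1 to 4 held 30.9, 41.9, 38.9 and 43.1 CPM. It was therefore not lower in the libraries labelled as knockouts (log2 fold change 0.30, SE 0.18, edgeR adjusted p = 0.415), and the genotype labels were not borne out by the level of the gene in whole heart. CPM expresses the reads of a gene relative to the library total, which was scaled by a TMM factor (trimmed mean of M values). Below, ACRE and CMS7KO stand for the libraries so labelled. Smad7 of other heart cells is also counted in whole tissue, and the part of the gene to be deleted was not examined.

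Libraries held 12920435 to 17199600 counted reads. Libraries ACRE 2 and ACRE 4 stood apart from the rest, with scores of 56.4 and 66.8 on the first principal component (43.3% of the variance) against -41.6 to -9.06 in the other 6. In those libraries the summed level of 12 cardiomyocyte markers was highest, at 80384 and 102349 CPM against 35521 to 56279 CPM in the others, and that of 15 endothelial markers was lowest, at 2565 and 3115 CPM against 4027 to 5729 CPM. Myh6 alone held 32495.7 and 44053.6 CPM of the cardiomyocyte sums in ACRE 2 and ACRE 4. Not all 12 cardiomyocyte markers followed the sum. Tnnt2, Tnni3, Myl2 and Myl3 were highest in other libraries, and the rest were highest in ACRE 2 and ACRE 4. No marker of either list was at 0. Because levels are relative and come from whole tissue, fewer cells of a type and less RNA per cell cannot be told apart. The sex label of 2 libraries, ACRE 3 and CMS7KO 3, did not match their sex-linked transcripts. Nothing in the labels says that same-numbered hearts were paired.

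Levels of the 9 genes differed widely when set on a common scale of CPM per kilobase of gene length. Rgs5, a regulator that shortens G-protein signals, was the most abundant at 221.1 on average over the 8 libraries, with a lowest value of 173.1 and a highest of 277.2. No other member reached that range. Acta2 followed at 107.8 (77.1 to 147.3), then Myl9 at 80.0 (26.1 to 125.0) and Smtn at 75.3 (62.6 to 88.5), and the ranges of these 3 genes overlapped. Pdgfrb stood at 28.7 (22.1 to 32.2), Myh11 at 12.7 (7.78 to 17.2) and Cspg4 at 6.21 (5.01 to 7.02), with no overlap between neighbours in this order. Cnn1 at 2.03 (0.711 to 3.16) and Tagln at 0.800 (0.236 to 1.53) were lowest and overlapped each other. The order of the 9 genes was the same when levels were scaled by total reads alone.

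The genotype comparison set the mural genes of hearts labelled as Smad7 knockouts against those of hearts labelled as Cre controls. None of the 9 genes passed an adjusted p of 0.05 (edgeR quasi-likelihood test with the sex label as covariate, adjusted over all genes tested). With DESeq2 the count was also 0. Of all genes 0.0358% passed with edgeR (0.0179% higher and 0.0179% lower in CMS7KO) and 2.88% with DESeq2. With limma voom 0 of the 9 and 0.0298% of all genes passed. An unadjusted p under 0.05 was found for 1 of the 9, against 15.3% of all genes. The groups did not overlap for 1 of the 9, against 9.59% of all genes. Both counts belonged to Myl9. The median log2 fold change (CMS7KO minus ACRE) was 0.05 over the 9 genes and -0.01 over all genes, and 7 of the 9 had a fitted value above 0, against 49.4% of all genes. Without ACRE 2 and ACRE 4 the median over the 9 was -0.29 and 3 of the 9 were above 0, with again none past the threshold, against 0.979% of all genes.

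**Figure D1:**
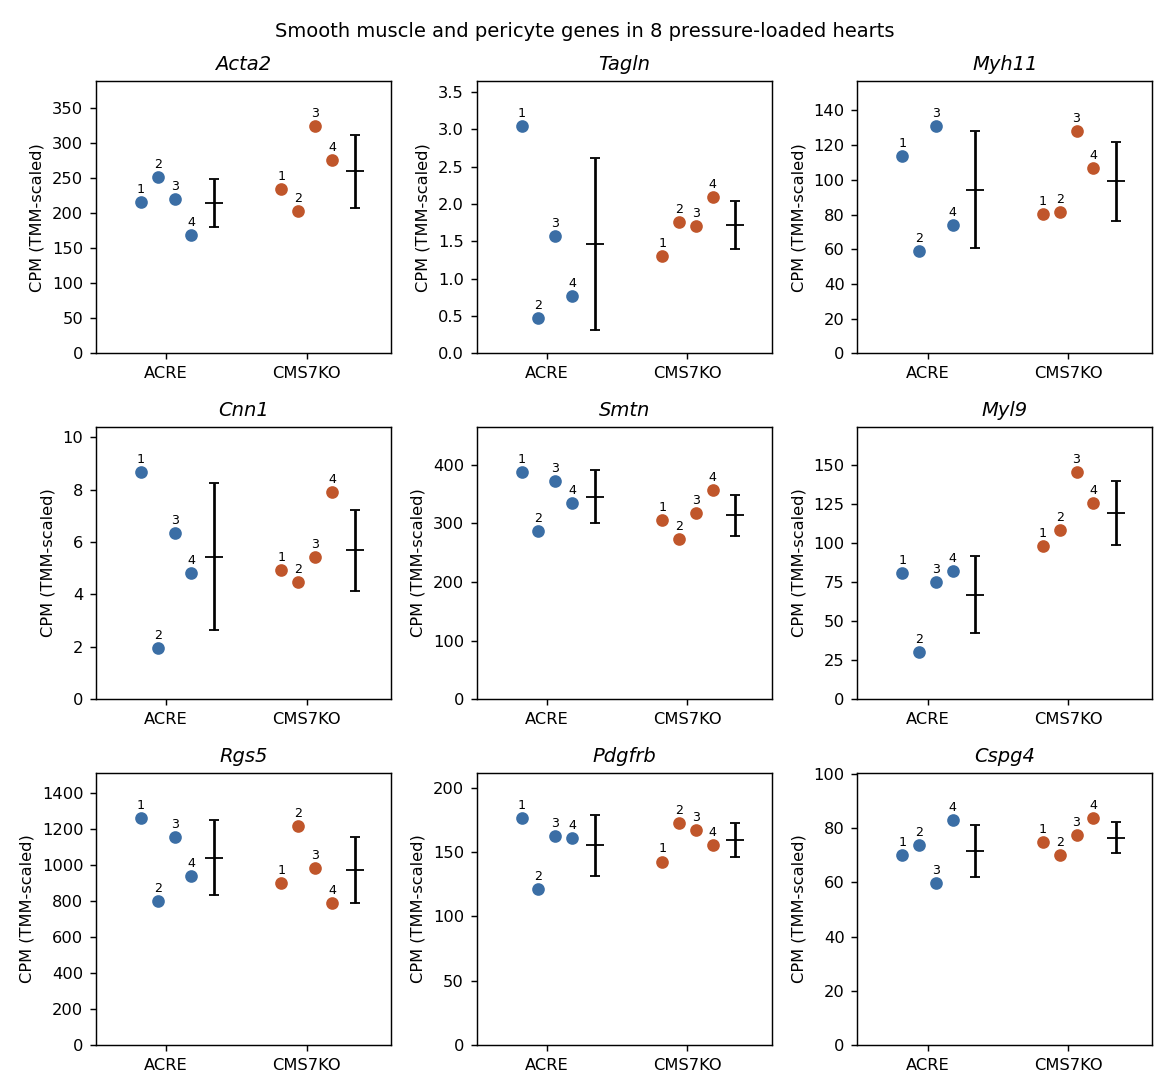
Level of each of the 9 genes in CPM (vertical axes start at 0) in the 4 ACRE and 4 CMS7KO libraries. Numbers beside points are replicate numbers, and the black mark and bar at the side of each group give its mean and SD. Myl9 is the gene whose groups do not overlap, with ACRE values of 30.4 to 81.8 and CMS7KO values of 98.0 to 145.2 CPM.

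Myl9 encodes a regulatory light chain of smooth muscle and nonmuscle myosin, whose phosphorylation starts contraction. It lies on chromosome 2 from 156617340 to 156623578 (+ strand) by the coordinates of the table. In ACRE 1 to 4 the level of Myl9 was 80.4, 30.4, 74.9 and 81.8 CPM, and the CMS7KO libraries 1 to 4 held 98.0, 108.1, 145.2 and 125.4 CPM. Every CMS7KO library lay above every ACRE library, and ACRE 2 lay far below its group. ACRE averaged 66.8 ± 24.5 CPM and CMS7KO 119.2 ± 20.7 CPM (SD, n = 4 each). Its fold change was 1.79 with a 95% confidence interval of 1.19 to 2.71 (log2 0.84, SE 0.27, unadjusted p = 0.0106, edgeR adjusted p = 0.269). It did not pass the threshold, and DESeq2 gave an adjusted p of 0.0871. Without ACRE 2 the log2 fold change was 0.61 (edgeR adjusted p = 0.322). Without ACRE 2 and ACRE 4 the fold was 1.51 (95% confidence interval 1.19 to 1.92, edgeR adjusted p = 0.114). When no filter on low counts was applied Myl9 was called (edgeR adjusted p = 0.00627), in a fit that called 1368 of 32514 genes.

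Markers of fibroblasts had fitted differences in the same direction as Myl9. The summed level of 12 activated fibroblast and myofibroblast markers was 863.5 to 1332.8 CPM in ACRE and 1165.4 to 3465.1 CPM in CMS7KO, and none of the 12 was at 0. All 12 had a fitted log2 fold change above 0 (median 1.11), with 0 past the edgeR threshold, 8 at an unadjusted p under 0.05 and 4 called by DESeq2. Over all genes, 15.3% had an unadjusted p under 0.05 and 2.88% were called by DESeq2. The library order differed: the activated fibroblast sum was highest in CMS7KO 2, at 3465.1 CPM, and Myl9 was highest in CMS7KO 3, where that sum was 1984.6 CPM. The part of these markers in the Myl9 values was not tested.

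Among close relatives of Myl9, Myl12a, a regulatory light chain of nonmuscle myosin, stood at 304.3 ± 44.0 CPM over the ACRE hearts and 225.6 ± 25.2 CPM over the CMS7KO hearts (SD, n = 4 each). Every CMS7KO library lay below every ACRE library for Myl12a, where 4.18% of all genes did so (log2 fold change -0.43, SE 0.19, edgeR adjusted p = 0.323). The other light chains among the relatives had fitted values above 0 and overlapping groups, with a log2 fold change of 0.19 for Myl12b (SE 0.30, edgeR adjusted p = 0.770) and 0.38 for Myl6 (SE 0.28, 0.513). Both were named after their values were seen. Genes closely alike in sequence can exchange reads, and the sources used here do not say how the counting treated such reads.

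Acta2, the alpha actin of smooth muscle, lies on chromosome 19 from 34218490 to 34232990 (- strand). In ACRE 1 to 4 its level was 215.6, 251.5, 220.5 and 169.3 CPM, and the CMS7KO libraries 1 to 4 held 233.9, 203.5, 323.4 and 276.0 CPM. The groups overlapped, and CMS7KO 3 and CMS7KO 4 were the 2 highest libraries. CMS7KO over ACRE gave a fold change of 1.20 with a 95% confidence interval of 0.859 to 1.67 (log2 0.26, SE 0.21, edgeR adjusted p = 0.550). Of the libraries that stood apart, ACRE 2 was the highest ACRE library for Acta2 and ACRE 4 the lowest of all 8.

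Acta2 has near relatives in heart muscle that are far more abundant. Actc1, the cardiac actin, stood at 10847.4 ± 4638.6 CPM in ACRE and 6638.7 ± 2135.1 CPM in CMS7KO, and Acta1, the skeletal actin of the fetal programme, at 2973 ± 2147.5 and 3987.1 ± 1522.9 CPM (SD, n = 4 each). Neither passed the threshold (edgeR adjusted p = 0.385 and 0.573). Reads shared between these genes and Acta2 were not analysed here.

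The promoter windows of Myl9 and Acta2 are shown because they are the 2 members in which a CArG box, or a site 1 letter off it, was found. RefSeq windows of 250 bases before the start (build GRCm38.p6) were searched by letters for 6 of the 9 genes. The pattern of the CArG box was taken as CC, then 6 letters of A or T, then GG. A site 1 letter off had 1 other letter among those inner 6. Sites with a change in the CC or GG were not searched for. The CArG box has the same pattern on both strands, so 1 search covered both. Myl9 had 1 exact box, beginning 161 bases before the start, and 1 site that was 1 letter off, 99 bases before it. Acta2 had 2 sites that were each 1 letter off, at 84 and 34 bases before the start. Cnn1, Smtn, Rgs5 and Cspg4 had neither, so defined, in this window. Of 32851 windows in the RefSeq table, 1.47% held an exact box and 8.59% held a box or a site 1 letter off. A match is a run of letters and not evidence of binding. Capitals below mark the boxes and near-boxes, in windows chr2:156775214-156775463 (+ strand) for Myl9 and chr19:34255374-34255623 (- strand) for Acta2, each 5′ to 3′ on the strand of its gene.
Myl9: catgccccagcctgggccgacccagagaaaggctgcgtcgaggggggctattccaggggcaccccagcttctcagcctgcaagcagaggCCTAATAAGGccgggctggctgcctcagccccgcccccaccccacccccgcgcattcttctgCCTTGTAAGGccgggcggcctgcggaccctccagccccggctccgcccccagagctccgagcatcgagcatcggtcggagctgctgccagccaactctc
Acta2: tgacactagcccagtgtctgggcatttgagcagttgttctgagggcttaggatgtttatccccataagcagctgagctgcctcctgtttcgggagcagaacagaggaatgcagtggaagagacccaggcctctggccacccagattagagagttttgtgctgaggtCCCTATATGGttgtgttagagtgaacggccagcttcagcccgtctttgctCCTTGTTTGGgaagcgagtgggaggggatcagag

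Myh11, the myosin heavy chain of mature smooth muscle, lies on chromosome 16 from 14012399 to 14109236 (- strand). ACRE 1 to 4 held 113.9, 59.1, 130.8 and 73.8 CPM, and CMS7KO 1 to 4 held 80.3, 81.2, 128.1 and 106.6 CPM. Both groups spread widely, and the 2 lowest libraries were ACRE 2 and ACRE 4. The fitted fold change was 1.03 (95% confidence interval 0.700 to 1.53, log2 0.05, SE 0.25, edgeR adjusted p = 0.942). Its direction turned without ACRE 2, without ACRE 4 and without CMS7KO 3. Without ACRE 2 and ACRE 4 together the fold was 0.795 (0.640 to 0.986, unadjusted p = 0.0391, edgeR adjusted p = 0.370), where 12.2% of all genes had an unadjusted p under 0.05.

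Cnn1, or calponin, an inhibitor of actomyosin in smooth muscle, lies on chromosome 9 from 22010512 to 22020926 (+ strand). It had few reads, 29 to 148 per library. ACRE 1 to 4 held 8.66, 1.94, 6.34 and 4.83 CPM, and CMS7KO 1 to 4 held 4.93, 4.46, 5.43 and 7.92 CPM. ACRE held both the highest and the lowest library. The fold change was 1.02 with a 95% confidence interval of 0.543 to 1.93 (edgeR adjusted p = 0.978). Its direction turned without ACRE 2, without ACRE 4 and without CMS7KO 4, and without ACRE 1 its log2 fold change was 0.61.

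Smtn, or smoothelin, an actin-binding protein of contractile smooth muscle, lies on chromosome 11 from 3467523 to 3490612 (- strand). In ACRE 1 to 4 its level was 387.5, 287.8, 372.9 and 335.6 CPM, and the CMS7KO libraries 1 to 4 held 306.4, 274.1, 317.3 and 357.5 CPM. The groups overlapped, with ACRE 1 and ACRE 3 the highest libraries. Its fold change was 0.905 (95% confidence interval 0.678 to 1.21, log2 -0.14, SE 0.19, edgeR adjusted p = 0.712). The antisense gene Gm11946 covers 16.3% of the exon bases of Smtn in the GENCODE mouse release 21 and held 9 to 28 reads per library. The sources used here do not say whether the counting used strand.

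Tagln, or transgelin, an actin-binding protein abundant in smooth muscle, was listed with only 7 to 52 reads per library. Read counts of Tagln were 0.00187 to 0.0141 of those of Acta2 in the same library. ACRE 1 to 4 held 3.04, 0.469, 1.57 and 0.772 CPM, and CMS7KO 1 to 4 held 1.30, 1.76, 1.71 and 2.09 CPM. ACRE held the highest library and the 2 lowest. The fold change of 1.17 had a 95% confidence interval of 0.492 to 2.77 (edgeR adjusted p = 0.864), the widest of the 9 genes, and its direction turned without ACRE 2 and without ACRE 4. Without ACRE 1 its log2 fold change was 1.02.

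Tagln lies on chromosome 9 from 45840917 to 45847356 (- strand), where 2 genes on the other strand overlap it. Exons of the antisense RNA Gm48529 cover 62.4% of the exon bases of Tagln (1241 of 1988), and the last exon of Pcsk7, a proprotein convertase, covers 5.43% (108 bases), by the GENCODE mouse release 21. In all 67.9% of Tagln exon bases are shared, against 16.3% for Smtn and 0% for the other 7 genes. Gm48529 held 12 to 34 reads per library and Pcsk7 307 to 876. The part of this overlap in the low count of Tagln was not tested, and the level of Tagln is best read as uncertain.

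**Figure D2:**
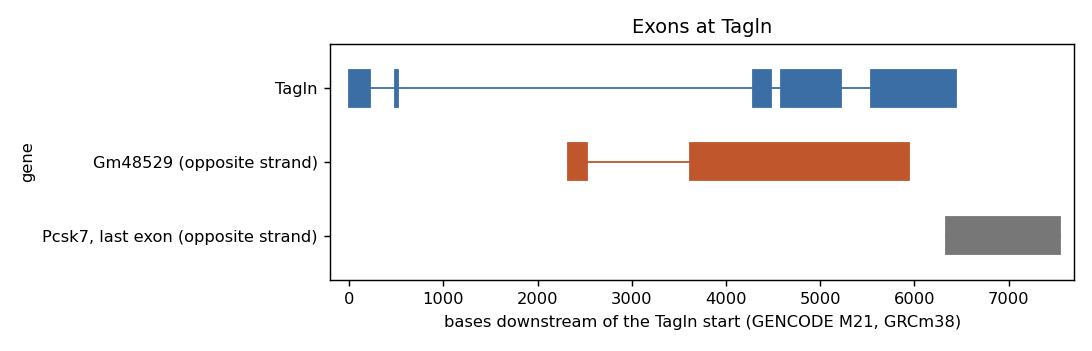
Exons of Tagln (top row) and of the 2 genes that overlap it on the opposite strand, drawn to scale by distance in bases downstream of the Tagln start. Boxes are merged exons and lines join exons of 1 gene. Gm48529 spans the 3 downstream exons in part or whole and shares 1241 of the 1988 exon bases of Tagln.

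Among the pericyte genes, Rgs5 lies on chromosome 1 from 169483070 to 169523382 (+ strand). ACRE 1 to 4 held 1260.3, 798.4, 1157.4 and 940.8 CPM, and CMS7KO 1 to 4 held 899.2, 1217.9, 981.4 and 786.9 CPM. Both groups covered nearly the same range. CMS7KO over ACRE gave a fold change of 0.931 with a 95% confidence interval of 0.641 to 1.35 (log2 -0.10, SE 0.24, edgeR adjusted p = 0.853). The fitted direction turned in 2 of 19 alternatives. These were scaling by total reads alone, where the log2 value was 0.03, and leaving out ACRE 1.

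Pdgfrb, the receptor for platelet-derived growth factor B on mural cells and fibroblasts, lies on chromosome 18 from 61178222 to 61218133 (+ strand). In ACRE 1 to 4 its level was 176.3, 120.9, 162.6 and 160.6 CPM, and the CMS7KO libraries 1 to 4 held 142.5, 172.5, 166.6 and 155.5 CPM. Apart from the low ACRE 2 the libraries were close together. The fitted fold change was 1.03 with a 95% confidence interval of 0.780 to 1.35 (log2 0.04, SE 0.18, edgeR adjusted p = 0.933), and its direction turned without ACRE 2 and without CMS7KO 2.

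Cspg4, the NG2 proteoglycan of pericytes and of some glial cells, lies on chromosome 9 from 56772317 to 56807154 (+ strand). In ACRE 1 to 4 its level was 70.3, 73.7, 59.7 and 83.1 CPM, and the CMS7KO libraries 1 to 4 held 74.8, 70.1, 77.5 and 83.8 CPM. It was the steadiest of the 9 genes in CMS7KO, with a coefficient of variation of 7.48%. The fold change was 1.07 with a 95% confidence interval of 0.840 to 1.35 (log2 0.09, SE 0.15, edgeR adjusted p = 0.786). Glial and Schwann cell markers, 8 in all with none past the threshold, summed to 16.2 to 47.0 CPM in ACRE and 23.1 to 40.7 CPM in CMS7KO.

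**Figure D3:**
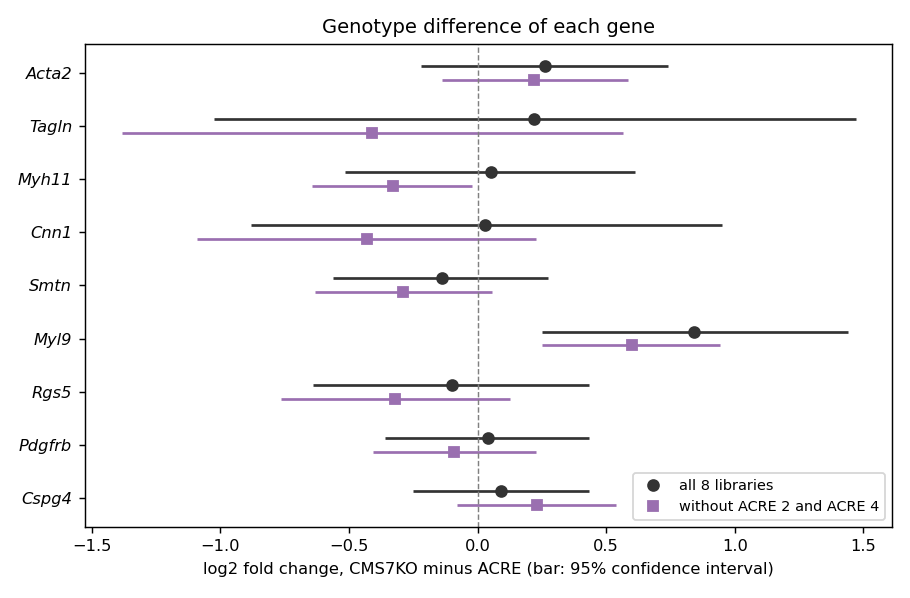
Log2 fold change (CMS7KO minus ACRE) of the 9 genes with 95% confidence intervals from edgeR, for all 8 libraries (circles) and without ACRE 2 and ACRE 4 (squares). The interval of Myl9 lies above 0 in both fits, at 1.19 to 2.71 and 1.19 to 1.92 as folds, without an adjusted p under the threshold. That of Myh11 reaches 0.986 as a fold in the smaller fit.

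The 9 genes differed in how far they followed the libraries that stood apart. Between ACRE 2 and ACRE 4 on one side and ACRE 1 and ACRE 3 on the other, the ratio of mean CPM was 0.269 for Tagln, 0.451 for Cnn1, 0.543 for Myh11, 0.719 for Rgs5 and 0.722 for Myl9. It was 0.820 for Smtn, 0.831 for Pdgfrb and 0.965 for Acta2, and Cspg4 alone was above 1, at 1.21. These ratios average libraries that could differ: against the mean of the 8 libraries, Acta2 was at 0.11 in ACRE 2 and -0.46 in ACRE 4 on the log2 scale, and Myl9 at -1.48 and -0.07. In the same libraries the mean of centred endothelial markers was -0.73 and -0.40 on the log2 scale, against 0.30 and 0.42 in ACRE 1 and ACRE 3. The part of cell composition in these values was not tested.

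**Figure D4:**
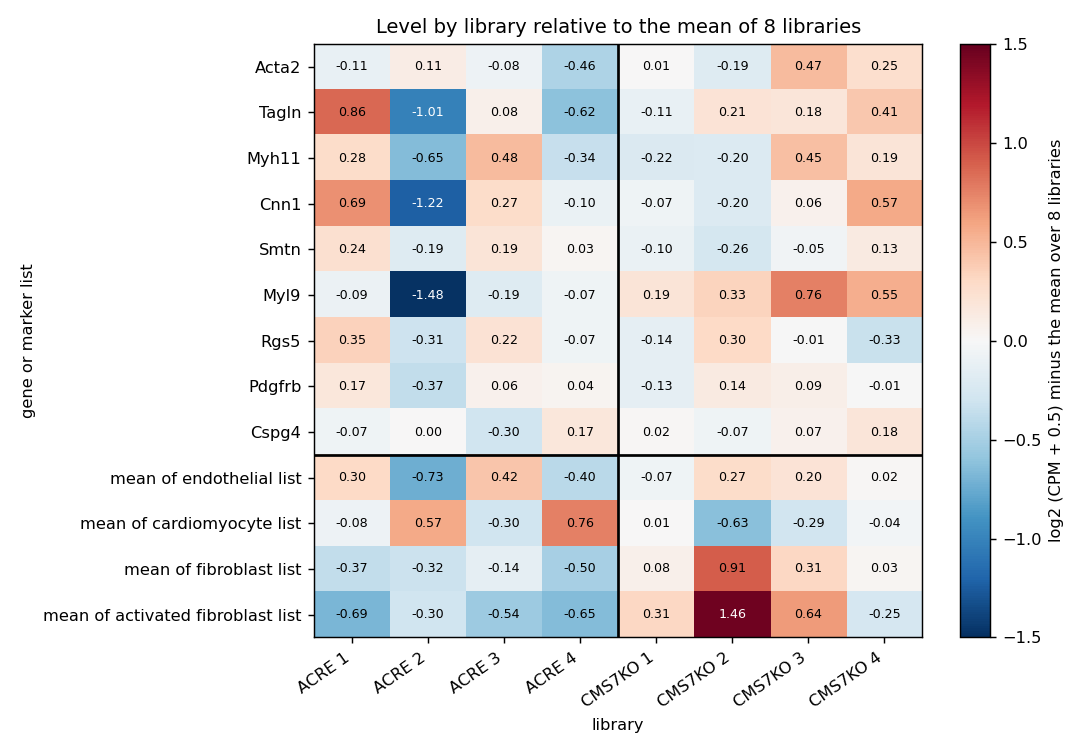
Log2 of CPM plus 0.5 for each gene in each library, minus the mean of that gene over the 8 libraries, with the mean over 4 marker lists below the line. Red is above and blue below the mean. Tagln, Myh11, Cnn1, Myl9 and Rgs5 were below their means in ACRE 2 and ACRE 4, Myl9 and Rgs5 by only 0.07 in ACRE 4. The endothelial list was also below in both, while the cardiomyocyte list was above at 0.57 and 0.76.

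Ratios between members within a library do not depend on how libraries are scaled, and were chosen after the levels were seen. Reads of Myl9 per read of Myh11 were 0.706, 0.514, 0.573 and 1.11 in ACRE 1 to 4 and 1.22, 1.33, 1.13 and 1.18 in CMS7KO 1 to 4. The groups did not overlap, though ACRE 4 came close to CMS7KO 3. It was 1 of 10 ratios computed, and the groups overlapped for the other 9. Among these, reads of Myl9 per read of Acta2 were 0.373, 0.121, 0.340 and 0.483 in ACRE and 0.419, 0.531, 0.449 and 0.454 in CMS7KO. The ratio of Acta2 to Myh11 was 1.89, 4.25, 1.69 and 2.30 in ACRE and 2.91, 2.51, 2.52 and 2.59 in CMS7KO. ACRE 2 was highest there and the groups overlapped. The ratio of Rgs5 to Pdgfrb, both pericyte genes, was 6.68 ± 0.604 in ACRE and 6.08 ± 0.834 in CMS7KO (SD, n = 4 each), with overlap. No test was made of these ratios.

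**Figure D5:**
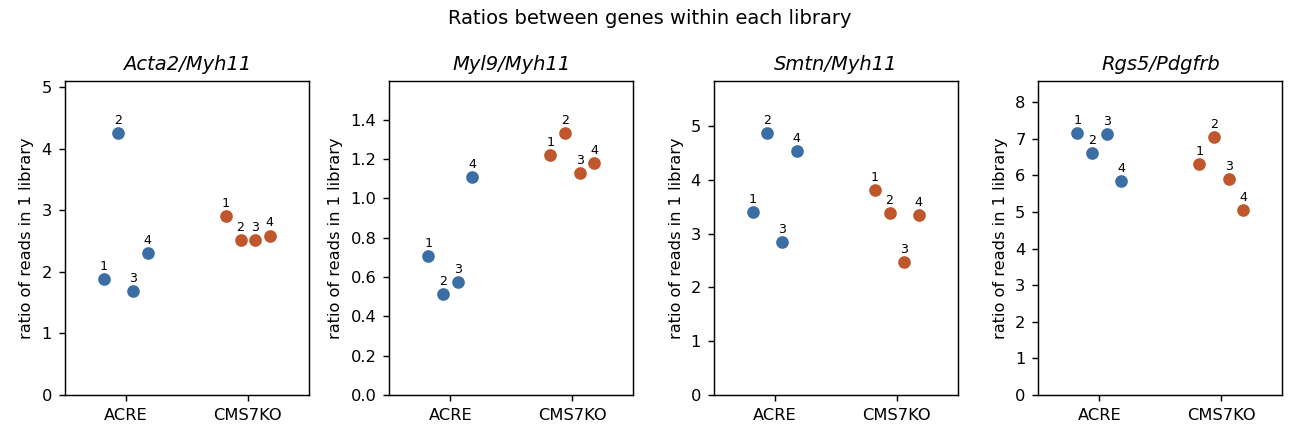
Ratios of read counts between pairs of members in each library, with replicate numbers beside the points and axes that start at 0. The ratio of Myl9 to Myh11 was 0.514 to 1.11 in ACRE and 1.13 to 1.33 in CMS7KO, and the other 3 ratios overlapped between the groups.

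Likeness of profile was measured as the root mean square difference of centred log2 levels over the 8 libraries, among 11420 genes with a mean of at least 5 CPM. For Myh11 the closest gene was Myl12b, a nonmuscle myosin light chain, at 0.108, and Mylk, the kinase of smooth muscle myosin light chains, was the third at 0.121. The closest gene was Caprin2 for Acta2 (0.125), Mapk11 for Tagln (0.135), Neat1 for Cnn1 (0.109), Hnrnpm for Smtn (0.0664) and Ppp1r16b for Myl9 (0.200). It was Mamdc2 for Rgs5 (0.0751), Lzts2 for Pdgfrb (0.0473) and Mgat4b for Cspg4 (0.0640). No member was the closest gene of another. Tagln was the nearest member to Cnn1, with 28 genes closer, and Rgs5 and Pdgfrb were the nearest members to each other, at 0.164. For Acta2 the nearest member was Cspg4, with 1645 genes closer. Genes that vary little have small differences from one another by construction.

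Other genes of mural cells were taken from lists chosen by cell type. Of 26 other smooth muscle contractile genes 0 passed the threshold in either direction, with 12 fitted values above 0 and 14 below (median log2 fold change -0.13, 3 with an unadjusted p under 0.05, 2 called by DESeq2). The last 2 shares were 15.3% and 2.88% over all genes. Without ACRE 2 and ACRE 4, 9 of the 26 were above 0 (median -0.09, 0 called). Lmod1, an actin nucleator of smooth muscle, stood at 6.68 ± 2.24 CPM over the ACRE hearts and 6.82 ± 1.22 CPM over the CMS7KO hearts (SD, n = 4 each, edgeR adjusted p = 0.993). Mylk stood at 55.2 ± 14.7 and 56.5 ± 9.49 CPM (adjusted p = 0.961), Cald1, caldesmon, at 111.8 ± 25.2 and 126.2 ± 17.6 (0.675), and Tpm2, a tropomyosin, at 60.4 ± 9.12 and 74.0 ± 18.1 (0.503). Actg2, the gamma actin of visceral smooth muscle, stood at 3.44 ± 1.81 and 2.88 ± 0.453 CPM (0.780). Synpo2, an actin-bundling protein also made by cardiomyocytes, stood at 135.9 ± 86.3 and 78.1 ± 17.0 CPM (0.386), with 181.6 and 234.5 CPM in ACRE 2 and ACRE 4.

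Of 24 other pericyte genes 0 passed in either direction, with 13 fitted values above 0 and 11 below (median 0.02, 7 with an unadjusted p under 0.05, 0 called by DESeq2). Over all genes the share with an unadjusted p under 0.05 was 15.3%. The 7 genes went both ways, with Abcc9, Art3 and Ednra lower in CMS7KO and Gja4, Heyl, Cygb and Foxs1 higher. Without ACRE 2 and ACRE 4, 7 of the 24 were above 0 (median -0.17, 0 called). Their summed level was 1454.1 to 1809.2 CPM in ACRE and 1296.5 to 1445.9 CPM in CMS7KO. The groups did not overlap, though ACRE 2 at 1454.1 CPM came close to CMS7KO 2 at 1445.9 CPM. Of all single genes 4.18% were lower in every CMS7KO library. Abcc9 and Art3, both in the sum, were highest in ACRE 2 and ACRE 4, with Art3 at 322.4 and 329.2 CPM there. Apart from Abcc9, the pericyte genes named so far in this paragraph were named after their values were seen. The part of Abcc9 and Art3 in the sums was not tested. Kcnj8, the pore of the vascular ATP-sensitive potassium channel, stood at 56.9 ± 18.9 CPM over the ACRE hearts and 58.4 ± 4.16 CPM over the CMS7KO hearts (SD, n = 4 each, edgeR adjusted p = 0.957). Its partner subunit Abcc9, which cardiomyocytes also make, stood at 339.1 ± 148.5 and 206.8 ± 21.6 CPM (adjusted p = 0.322), with 432.2 and 498.8 CPM in ACRE 2 and ACRE 4. Vtn, vitronectin, stood at 30.8 ± 11.3 and 38.6 ± 9.94 CPM (0.588), Higd1b at 16.5 ± 6.31 and 15.7 ± 2.11 (0.910), and Ndufa4l2 at 30.0 ± 10.3 and 34.4 ± 8.05 (0.736). Notch3, a receptor that maintains mural cells, stood at 133.9 ± 20.1 and 145.2 ± 20.7 CPM (0.733).

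Upstream of the contractile genes, 25 regulators of the Srf and myocardin axis gave 0 calls, with 9 fitted values above 0 and 16 below (median -0.25, 3 with an unadjusted p under 0.05, 0 called by DESeq2). Over all genes the share with an unadjusted p under 0.05 was 15.3%. Srf stood at 93.3 ± 39.3 CPM over the ACRE hearts and 63.2 ± 5.34 CPM over the CMS7KO hearts (SD, n = 4 each, edgeR adjusted p = 0.365), and Myocd at 43.9 ± 26.5 and 23.0 ± 3.74 CPM (0.323). Both genes are also expressed by cardiomyocytes. ACRE 2 and ACRE 4 held 66.6 and 67.0 CPM of Myocd, and ACRE 1 and ACRE 3 held 22.8 and 19.2 CPM. Klf4, a factor that opposes the contractile programme, stood at 70.5 ± 8.81 and 76.0 ± 12.4 CPM (0.757). Without ACRE 2 and ACRE 4 the median of this list was 0.04 and 1 gene was called, the cardiac factor Tbx20 (log2 fold change 0.73, edgeR adjusted p = 0.0288). That gene was named after its value was seen.

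Ligands and receptors of the platelet-derived growth factor family gave 0 calls among 6 with edgeR and with DESeq2, and 0 had an unadjusted p under 0.05. Pdgfb, the ligand made by endothelium, stood at 133.1 ± 55.0 CPM over the ACRE hearts and 133.6 ± 13.2 CPM over the CMS7KO hearts (SD, n = 4 each, edgeR adjusted p = 0.998). Pdgfd, the other ligand of Pdgfrb, stood at 32.6 ± 11.2 and 30.5 ± 4.96 CPM (0.873). Pdgfa stood at 17.9 ± 1.90 and 21.9 ± 0.964 CPM (0.365), with every CMS7KO library above every ACRE library, as for 5.41% of all genes. Pdgfc stood at 2.49 ± 1.21 and 2.92 ± 0.928 CPM (0.816). Pdgfra, the receptor of fibroblasts, stood at 53.6 ± 9.81 and 64.4 ± 17.0 CPM (0.558), and Pdgfrl, a receptor-like relative, at 6.24 ± 2.40 and 8.98 ± 5.72 (0.563).

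The labelled sex was examined in the same fits. None of the 9 genes passed for the sex label or for its interaction with genotype, and with edgeR 0% of all genes passed either. Of all genes 1.23% and 1.06% had an unadjusted p under 0.05, against 0 of the 9 in both cases. The largest interaction was that of Tagln, with a log2 value of 0.87 (SE 1.14, edgeR adjusted p = 1). For Acta2 the genotype difference in mean log2 level was -0.09 among hearts labelled male and 0.63 among hearts labelled female, a difference of 0.72 in the fit (SE 0.41, unadjusted p = 0.115). Each combination held 2 libraries, and 1 of the 2 female-labelled libraries of each genotype had a label that its transcripts did not match.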

How the data were processed

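The authors deposited 1 table of raw read counts per gene, with 1 column per heart and no normalization, per the file headers. It also gives a gene length, used here for levels per kilobase. Tools listed, without roles, in the submitters' processing notes are HTSeq 0.6.1, TopHat2 2.0, Cufflinks 2.1.1 and CASAVA, beside the genome builds GRCm38.p6 and mm10. The sources used here give neither strand setting nor annotation. Starts of the 9 genes in the table matched GENCODE mouse release 21 (GRCm38) in 0 of 9 genes and exon lengths in 9 of 9, so the coordinates of the table are used with no build named.

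The deposited counts were fitted with edgeR 4.0.16 under R 4.3.3 (robust quasi-likelihood F test, TMM factors of 0.803 to 1.13, low counts filtered with filterByExpr over 4 genotype and sex label combinations, 5 residual degrees of freedom), with DESeq2 1.42.0 and limma 3.58.1 as alternatives. P values were adjusted by Benjamini-Hochberg over 16780 genes. SEs are log2 fold changes over the square root of F, and 95% intervals use the moderated degrees of freedom. The scripts were tested on simulated data. No library pair agreed within sampling noise (smallest chi-square per degree of freedom 17.5). P values set a fitted difference against the spread between these hearts that the fit leaves over. The members, the 14 gene lists and the rule for named genes (all members, set examples of each list, and any listed gene past the threshold) were chosen with earlier results of these data known. No test was made of a list. The promoter of Acta2, with sites 1 letter off, and the within-library ratios were added after values were seen.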

Additional observations from a re-analysis of the deposited data

Results flagged for a closer look

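Myl9 in ACRE 2, at 30.4 CPM, lay far below the other ACRE libraries, which held 74.9 to 81.8 CPM. It was the only one of 18 groups checked (9 genes in 2 genotypes) in which 1 library lay beyond the 95% critical value of Dixon's test, and chance alone marks about 1 in 20 groups. Without ACRE 2 the log2 fold change of Myl9 was 0.61 (edgeR adjusted p = 0.322).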

How the results depend on the processing

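Over 19 alternatives Acta2, Smtn and Myl9 kept their fitted direction, with log2 fold changes of 0.10 to 0.41, -0.29 to -0.01 and 0.60 to 1.15. Myl9 passed the threshold in 1 of them (no filter on low counts, 1 of the 9 genes called), and its edgeR, DESeq2 or voom adjusted p was 0.00627 to 0.594. Scaling by total reads moved the median of all genes to 0.14 from -0.01 and turned Rgs5 (0.03). Leaving out 1 library in turn gave log2 ranges of -0.07 to 1.02 for Tagln, -0.13 to 0.29 for Myh11, -0.23 to 0.61 for Cnn1, -0.07 to 0.14 for Pdgfrb, -0.02 to 0.16 for Cspg4 and -0.25 to 0.00 for Rgs5, a median over the 9 genes of -0.07 (without ACRE 2) to 0.28 (without ACRE 1), and 0 to 10 genes called higher and 0 to 7 lower. Without CMS7KO 1, 2 or 3 no gene was called. Without ACRE 2 and ACRE 4, Tagln (-0.41), Myh11 (-0.33), Cnn1 (-0.43) and Pdgfrb (-0.09) turned, and the median was -0.29. In that fit 86 genes were called higher and 89 lower, or 0.979% of all genes. Called among the lists were 1 of 25 regulator, 1 of 12 activated fibroblast and 2 of 12 macrophage genes.

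With all 8 libraries 3 genes were called higher and 3 lower. DESeq2 called 278 and 206, or 2.88% of all genes. Of the lists it called 2 of 26 contractile, 3 of 12 large artery wall, 1 of 12 cardiomyocyte and 4 of 12 fibroblast genes. It also called 4 of 12 activated fibroblast and 4 of 12 macrophage genes. With no filter 456 and 912 of 32514 genes were called. These included 6 of 26 contractile, 4 of 24 pericyte, 2 of 25 regulator, 5 of 12 artery wall and 3 of 12 cardiomyocyte genes. Also called were 5 of 12 fibroblast, 8 of 12 activated fibroblast, 6 of 12 macrophage and 4 of 7 red cell genes. Meox1 counts in both fibroblast lists in both fits. Casq2 counts in the contractile and cardiomyocyte lists with no filter. Without the sex label 5 were lower, and without ACRE 3 and CMS7KO 3 there were 0 and 1. Same-numbered libraries deviated together with correlations of -0.24 to 0.22, so the numbers were not taken as pairs. With the replicate block 1 gene was called higher and 0 of the 9 genes passed. The interaction without ACRE 3 and CMS7KO 3 was not run, since it leaves 1 library in a combination. For all these changes the cause was not tested. Tagln, with 7 to 52 reads per library, and Cnn1, with 29 to 148, had the fewest reads of the 9 genes.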

Other observations

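Genes of the elastic artery wall had 11 of 12 fitted log2 fold changes above 0 and 0 called (edgeR, median 0.61, 5 of 12 with an unadjusted p under 0.05, 3 called by DESeq2). The last 2 shares were 15.3% and 2.88% over all genes. DESeq2 called Mfap4, Mgp and Sost, which were named after their values were seen. Sost was low, at a mean of 0.826 CPM over the 8 libraries and 0 in ACRE 4. Eln, which encodes elastin, was at 148.8, 110.6, 170.6 and 77.7 CPM in the ACRE libraries 1 to 4. The CMS7KO libraries 1 to 4 held 217.4, 712.7, 409.3 and 112.9 CPM, with overlap (log2 fold change 1.46, SE 0.50, edgeR adjusted p = 0.283). CMS7KO 2 was highest for Eln and also for the sum of activated fibroblast markers, at 3465.1 CPM. Its Myh11 level of 81.2 CPM lay within the range of the ACRE libraries, 59.1 to 130.8 CPM. The part of fibroblasts or of attached great vessel in these values was not tested.

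Lung epithelial markers were nearly absent, with 2 of 7 at 0 in every library and a summed level of the 2 tested genes of 1.12 to 4.10 CPM. Red cell and platelet markers summed to 378.9 to 804.1 CPM in ACRE and 791.2 to 1355.6 CPM in CMS7KO. Macrophage and monocyte markers summed to 343.1 to 588.3 and 686.8 to 822.6 CPM, with no overlap. Of these 12 markers 10 had fitted values above 0 and 2 below, with 0 called by edgeR and 4 by DESeq2. Fibroblast markers summed to 3612.6 to 4181.8 CPM in ACRE and 4498.3 to 8015.2 CPM in CMS7KO, also with no overlap. All 12 had fitted values above 0, with 0 called by edgeR and 4 by DESeq2. Over all genes DESeq2 called 2.88%. Of all single genes 5.41% were higher in every CMS7KO library. No test was made of these sums.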
